A study of Mus musculus with 16 samples.

Results

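The genes that copy DNA and supply its building blocks were followed in mouse two-cell embryos, the stage at which the mouse embryo's own genome becomes broadly transcribed. The set held 49 genes of origin licensing, origin firing and the fork helicase, the sliding clamp, the polymerases, strand maturation and deoxynucleotide supply. Each gene was read from the probe set annotated to its symbol with the highest mean over 16 arrays, and 49 of 49 were among the 15274 genes tested, of 18193 genes with a probe set of their own. The 49 genes had 110 probe sets, 100 of them tested, and 37 genes had more than 1.

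Total RNA of the embryos was hybridised to 16 biotin-labelled oligonucleotide arrays, 4 in each of 4 groups. BBB embryos had ooplasm, maternal pronucleus and paternal pronucleus of strain B6. BCB embryos had a maternal pronucleus of strain C3H, and their ooplasm and paternal pronucleus were of strain B6, so every group carried B6 ooplasm and a B6 paternal genome. Each kind was either untreated or treated with α-amanitin (the labels spell it α-amantin), an inhibitor of RNA polymerase II. The labels give no dose, no duration, no number of embryos per array and no origin of the replicates, so p-values measure only the spread between these arrays, which may be technical. The values are RNA of whole embryos on a scale set per array, so fewer cells and less RNA per cell cannot be told apart. The number of arrays, 4 a group, limits the precision.

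A replication origin is first bound by the origin recognition complex, whose subunits Orc1 to Orc6 recruit Cdc6 and Cdt1 to load the Mcm2 to Mcm7 helicase, a step called licensing that geminin (Gmnn) blocks. The kinase Cdc7 with its activator Dbf4 then turns licensed origins on, and Cdc45 and the GINS complex complete the active helicase. Primase and polymerase alpha lay down primers, replication factor C loads the ring-shaped clamp Pcna, and polymerases delta and epsilon extend the strands. The oocyte stores RNA and protein for early divisions, and part of the stored RNA is replaced by RNA made by the embryo at the two-cell stage.

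Genes of replication are known in mammals as targets of E2F transcription factors, so the promoters were searched for E2F sites. RefSeq promoters of 300 bases (250 before and 50 after the annotated start, build GRCm38.p6) were found for 41 of the 49 genes, as 50 promoters. The E2F motif was searched on both strands as TTTCCCGC, TTTCGCGC, TTTGCCGC and TTTGGCGC. Below, 4 promoters are shown 5′ to 3′ on the gene's strand with matches in capitals: Orc1 and Mcm6, which fell with amanitin on the deposited scale, and Pola1 and Orc2, which rose on it. Orc1 is at chr4:108579204-108579503 on the plus strand, and Mcm6 at chr1:128359656-128359955, Pola1 at chrX:93632106-93632405 and Orc2 at chr1:58505060-58505359 are on the minus strand.
Orc1: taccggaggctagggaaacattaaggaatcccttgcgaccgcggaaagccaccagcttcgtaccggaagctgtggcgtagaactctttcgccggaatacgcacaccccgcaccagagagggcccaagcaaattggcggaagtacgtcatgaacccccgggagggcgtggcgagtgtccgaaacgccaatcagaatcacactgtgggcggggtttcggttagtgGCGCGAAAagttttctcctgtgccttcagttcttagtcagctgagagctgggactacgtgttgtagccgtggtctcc
Mcm6: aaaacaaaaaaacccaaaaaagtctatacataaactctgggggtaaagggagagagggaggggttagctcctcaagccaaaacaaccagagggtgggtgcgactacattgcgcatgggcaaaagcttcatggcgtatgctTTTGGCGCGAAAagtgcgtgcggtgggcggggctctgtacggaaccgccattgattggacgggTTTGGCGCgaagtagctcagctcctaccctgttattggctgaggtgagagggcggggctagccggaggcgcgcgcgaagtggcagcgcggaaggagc
Pola1: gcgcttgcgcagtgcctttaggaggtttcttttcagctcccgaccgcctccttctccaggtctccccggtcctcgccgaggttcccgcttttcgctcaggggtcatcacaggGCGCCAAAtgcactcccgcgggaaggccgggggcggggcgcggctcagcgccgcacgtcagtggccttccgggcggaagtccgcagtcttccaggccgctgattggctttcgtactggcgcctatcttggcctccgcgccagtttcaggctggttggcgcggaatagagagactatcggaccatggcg
Orc2: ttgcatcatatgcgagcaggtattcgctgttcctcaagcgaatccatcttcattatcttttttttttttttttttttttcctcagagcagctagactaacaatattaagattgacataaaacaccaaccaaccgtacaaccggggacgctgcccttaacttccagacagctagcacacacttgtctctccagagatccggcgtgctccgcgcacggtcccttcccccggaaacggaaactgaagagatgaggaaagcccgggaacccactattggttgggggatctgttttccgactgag
The Orc1 match lay 27 to 20 bases before the start, and the Pola1 match 138 to 131 bases before it. Mcm6 held 3 matches, of which a pair overlapped each other. The Orc2 window held no match to these letters. The motif was present in 16 of 50 promoters of the set (32.0%), against 2.26% of all 32851 promoters of that length. Among genes that fell with amanitin in both kinds of embryo on the deposited scale it was in 10 of 27 promoters (37.0%), and among those that rose in both it was in 3 of 13 (23.1%). The wider form TTTNNCGC was in 36.0% of the set's promoters and 5.17% of all. The CCAAT box was in 54.0% against 37.4% and the GC box GGGCGG in 72.0% against 35.7%. Of 24 matches to the wider E2F form, 4 overlapped another such match, 1 a CCAAT box and 0 a GC box.

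The first comparison set amanitin-treated against untreated embryos. With amanitin, most of the replication genes were lower and a smaller group was higher. In BBB embryos 27 of 49 genes fell (55.1%, against 33.1% of all genes tested), 14 rose (28.6%, against 37.1%) and 8 did not pass the test, which was a limma fit of all probe sets with p-values adjusted by Benjamini and Hochberg's method and called under 0.05. In BCB embryos 30 fell (61.2%, against 31.9% of all genes), 14 rose (28.6%, against 39.9%) and 5 did not pass. Changes are differences of log2(intensity + 16), a scale that understates the change of dim genes. The 49 genes had a median log2 difference of -1.14 (BBB) and -1.10 (BCB), and over all genes it was 0.11 and 0.17. The falls were also the larger changes: in BBB 26 genes were at least 2-fold lower (21.9% of all genes were) and 4 at least 2-fold higher (15.9% of all genes). In BCB 25 were at least 2-fold lower (21.1%) and 5 at least 2-fold higher (16.2%).

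Of the 49 genes, 27 fell in both kinds of embryo, 13 rose in both, 4 passed in neither (Orc6, Mcm8, Gins2 and Rfc4) and 5 passed in 1 kind (Orc3, Orc4, Pold1, Rpa1 and Tyms). No gene passed in opposite directions. The untreated and treated arrays did not overlap for 27 lower genes in BBB (30.7% of all genes) and 28 in BCB (29.7%), and for 14 higher genes in BBB (33.9%) and 13 in BCB (35.6%).

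**Figure D1:**
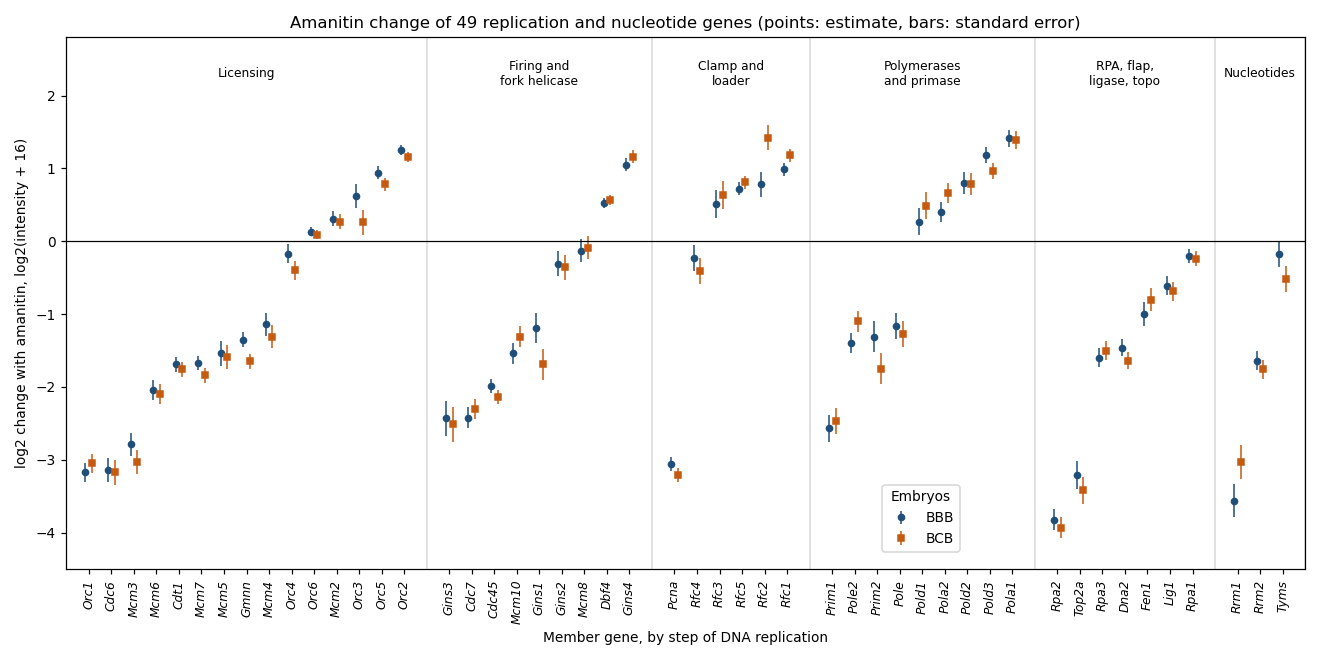
Log2 difference with amanitin (treated minus untreated, log2(intensity + 16), deposited scale) for the 49 genes, ordered by replication step on the horizontal axis, in BBB (circles) and BCB (squares), each from 4 against 4 arrays with bars of 1 SE. Maturation and nucleotide genes lie at or below 0 and Rpa2 is lowest at -3.82 in BBB, while the 14 genes called higher in BBB lie between 0.31 and 1.41 and all fall below 0 when arrays are scaled to the poly-A controls.

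The direction of the rises depended on how arrays are scaled. The deposited arrays have nearly equal trimmed means (148.6 to 149.4), while the added controls were brighter with amanitin: hybridization controls by 0.55 and 0.81 and poly-A controls by 1.86 and 1.88 log2 units in BBB and BCB, with no overlap between groups (exact two-sided permutation test, p = 0.0286 for each, the smallest that 4 against 4 can give, and 0.0572 adjusted over 20 tests). The 18S probe sets were brighter by 1.26 and 1.62. When hybridization controls set the scale, the median of all genes moved to -0.25 in BBB and -0.36 in BCB, 6 and 5 replication genes were called higher and 33 and 36 lower. Scaled to the poly-A controls, that median was -1.17 and -1.13, no gene of the set was called higher in BBB or BCB by limma, and 48 and 47 were called lower. The 27 falls in BBB stayed called lower under both control scalings and under centring of arrays on their medians, and under quantile normalization all but Lig1 did (-0.26, limma adjusted p = 0.0577). All 14 rises in BBB lay below 0 under poly-A scaling, but 11 of them were still above that scaling's median of all genes. Rises below are therefore given on the deposited scale, as changes relative to the bulk of the RNA.

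**Figure D2:**
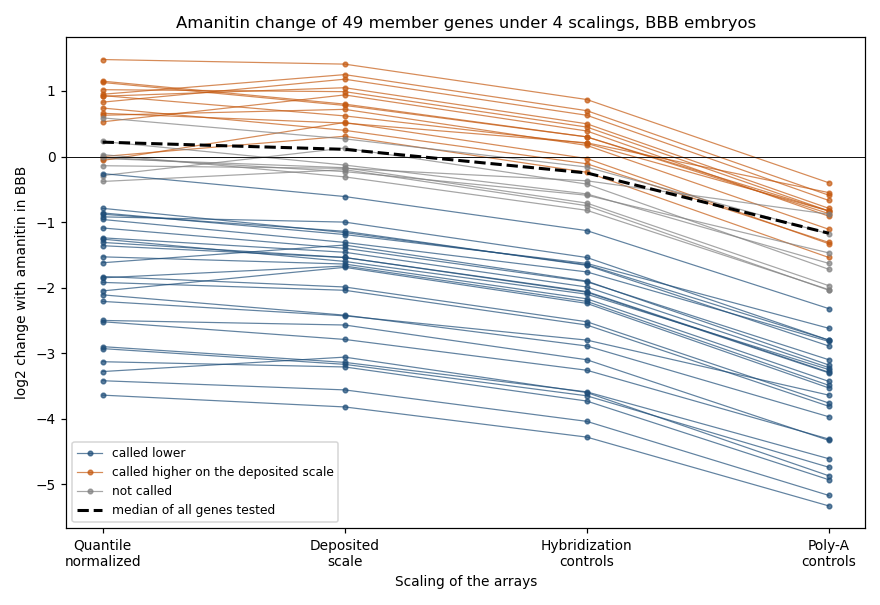
Log2 difference with amanitin in BBB for the 49 genes under 4 scalings of the same arrays, 1 line per gene, with the median of all genes dashed. Genes called lower on the deposited scale stay below the dashed line throughout, and the 14 called higher are all below 0 on poly-A scaling, where the dashed line is at -1.17.

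The labelled stage was checked against marker genes. The 5 measured two-cell embryo markers of 8 listed summed to intensities of 9379.3 to 11473.3 on untreated arrays and 508.7 to 863.9 with amanitin. The 8 oocyte markers summed to 11701.3 to 14003.1 untreated and 22302.4 to 25612.7 with amanitin on the deposited scale. The 10 measured of 12 cumulus and granulosa markers summed to 117.2 to 153.6 and 200.4 to 294.4, and the 6 sperm markers to 40.6 to 75.9 and 66.1 to 102.0. Of the 7 cumulus and granulosa markers tested, 4 were called higher with amanitin in BBB and 3 in BCB on the deposited scale, and none lower. Of all genes tested, 37.1% were called higher in BBB and 39.9% in BCB. Means are given in the order untreated BBB, untreated BCB, treated BBB and treated BCB. They were 51.8, 45.1, 64.5 and 79.1 for Foxl2 and 15.2, 12.6, 37.0 and 59.3 for Has2. Fshr, called higher in BBB only, was at 3.7, 9.3, 18.8 and 16.8. Amh, not tested, was at 1.77, 1.7, 1.93 and 2.97. Tnfaip6, also not tested, went the other way, at 6.2, 12.3, 4.85 and 2.85. No measured marker had a group mean of 0, but a mean above 0 does not show that a gene was present. Below their arrays' 40th percentile on all 4 arrays of a group were 5, 1, 3 and 2 cumulus and granulosa markers. For sperm markers the counts were 2, 3, 2 and 2, in the same group order. The part of these other cells' RNA in the results below was not tested.

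Most licensing genes fell and a smaller group rose. In BBB 9 of 15 fell and 4 rose on the deposited scale, and in BCB 10 fell and 3 rose, with medians of -1.35 and -1.59. The share that fell was above that of all genes (33.1% in BBB and 31.9% in BCB). The share that rose was below that of all genes (37.1% and 39.9%). Orc1, the largest subunit of the origin recognition complex and an ATPase, had the lowest log2 difference of the step in BBB, close to that of Cdc6 (-3.14), and in BCB Cdc6 was lower (-3.17). Orc1's intensities were 574.2, 513.9, 630.6 and 575.2 in untreated BBB and 49.2, 50.2, 64.6 and 35.9 in treated BBB. In BCB they were 533.3, 562.0, 549.6 and 580.6 untreated and 50.5, 46.7, 52.8 and 63 treated. Every treated array was below every untreated one. On the log2 scale Orc1 differed by -3.17 ± 0.13 (SE) in BBB, with a limma adjusted p of 6.69e-16, and by -3.05 ± 0.13 in BCB (1.33e-15), a 9.02-fold and 8.29-fold difference. The dimmer Orc1 probe set was at -0.90 in BBB, where it passed, and at -0.09 in BCB, where it did not. The size of this fall therefore depended on the probe set.

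Orc2, a core subunit of the same complex, moved the other way. The untreated arrays of Orc2 gave 1265.0, 1176.3, 1348.9 and 1310.1 in BBB and 1271.7, 1311.6, 1209.5 and 1201.4 in BCB. Its treated arrays gave 3043.4, 2945.0, 3042.6 and 3187.3 in BBB and 2566.9, 2813.6, 2813.0 and 3027.5 in BCB. The treated arrays were all above the untreated ones. Orc2 was at a log2 difference of 1.25 ± 0.07 (SE, limma adjusted p = 2.54e-13) in BBB and 1.16 ± 0.07 (1.08e-12) in BCB.

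Orc5, another ATPase subunit, given for the highest mean intensity of its step, also rose on the deposited scale. Orc5 measured 1833.6, 1589.5, 2034.6 and 1942.4 on the untreated BBB arrays and 1805.5, 1880.0, 1866.9 and 2026.3 on the untreated BCB arrays. With amanitin it measured 3328.3, 4043.4, 3435.1 and 3407.2 in BBB and 3071.8, 3700.0, 3039.1 and 3264.5 in BCB. The groups did not overlap in either kind, with log2 differences of 0.94 ± 0.09 and 0.78 ± 0.09. Scaled to the hybridization controls, Orc5 was still called higher in BBB but was at -0.02 in BCB (limma adjusted p = 0.862). The other subunits were closer to 0: Orc3 was at 0.62 ± 0.17 in BBB, where it passed, and 0.26 ± 0.17 in BCB, where it did not. Its other probe sets were called higher in BCB (0.88 and 0.66, limma adjusted p = 0.000109 and 0.00654), and Orc3 also passed there with probe sets averaged (0.60), under quantile normalization (0.44) and with arrays centred on their medians (0.48). Orc6, which did not pass in either kind, was at 0.13 ± 0.06 and 0.09 ± 0.06. Orc4 was at -0.17 ± 0.13 and -0.40 ± 0.13, called lower in BCB, but its other probe sets gave calls in both directions.

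The loaders fell too. Cdc6, the ATPase that joins the complex on the origin, went from 466.5, 402.8, 371.3 and 411.1 to 43.4, 28.3, 39.2 and 22.2 in BBB and from 437.8, 393.0, 454.3 and 421.1 to 26, 55.7, 33.4 and 23.4 in BCB. The groups were apart in both kinds, with log2 differences of -3.14 ± 0.17 and -3.17 ± 0.17. Cdt1, the partner that brings the Mcm helicase, measured 3137.3, 3330.6, 3523.6 and 3766.3 in untreated BBB and 1269.2, 897.1, 911.3 and 1170.5 with amanitin, a log2 difference of -1.69 ± 0.10 (-1.76 ± 0.10 in BCB). Its inhibitor Gmnn measured 2452.6, 2347.5, 2155.4 and 2384.6 and 741.9, 905.7, 990.8 and 1012.0, a log2 difference of -1.35 ± 0.10 (-1.65 ± 0.10 in BCB). Both fell without overlap between groups.

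Of the 6 subunits of the Mcm2 to Mcm7 ring, 5 fell in both kinds (83.3%, against 33.1% of all genes in BBB and 31.9% in BCB). Mcm3 fell most, from 433.3, 342.4, 348.5 and 401.6 to 61.9, 34.5, 33.6 and 38.2 in BBB, a log2 difference of -2.79 ± 0.16 (-3.03 ± 0.16 in BCB). Mcm6 was at -2.04 ± 0.14 and -2.10 ± 0.14, Mcm7 at -1.67 ± 0.10 and -1.84 ± 0.10, Mcm5 at -1.54 ± 0.17 and -1.59 ± 0.17, and Mcm4 at -1.14 ± 0.16 and -1.31 ± 0.16. All 5 had treated arrays below all untreated arrays. Another Mcm5 probe set was at -0.53 and -0.44, called lower, and a dim one, at -0.03 and 0.22, was not called. The other Mcm4 probe set was at -0.52 and -0.70, called lower. Other Mcm3 probe sets were all called lower, at -2.12, -1.72, -2.1 and -0.44 in BBB and -2.35, -1.13, -2.33 and -0.56 in BCB. The size of the Mcm3, Mcm4 and Mcm5 falls therefore depended on the probe set. Mcm2 was the exception and rose slightly on the deposited scale, at 0.31 ± 0.10 (limma adjusted p = 0.00791) and 0.27 ± 0.10 (0.0175). The call of Mcm2 was lost under quantile normalization in both kinds, and in BCB without replicate 1 of the untreated group (0.16, limma adjusted p = 0.113), and its sign turned under both control scalings. The other Mcm2 probe set was at 0.96 (limma adjusted p = 3.47e-10) and 0.66 (1.86e-07), and the mean of both at 0.63 and 0.47, so the size of this rise depended on the probe set.

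**Figure D3:**
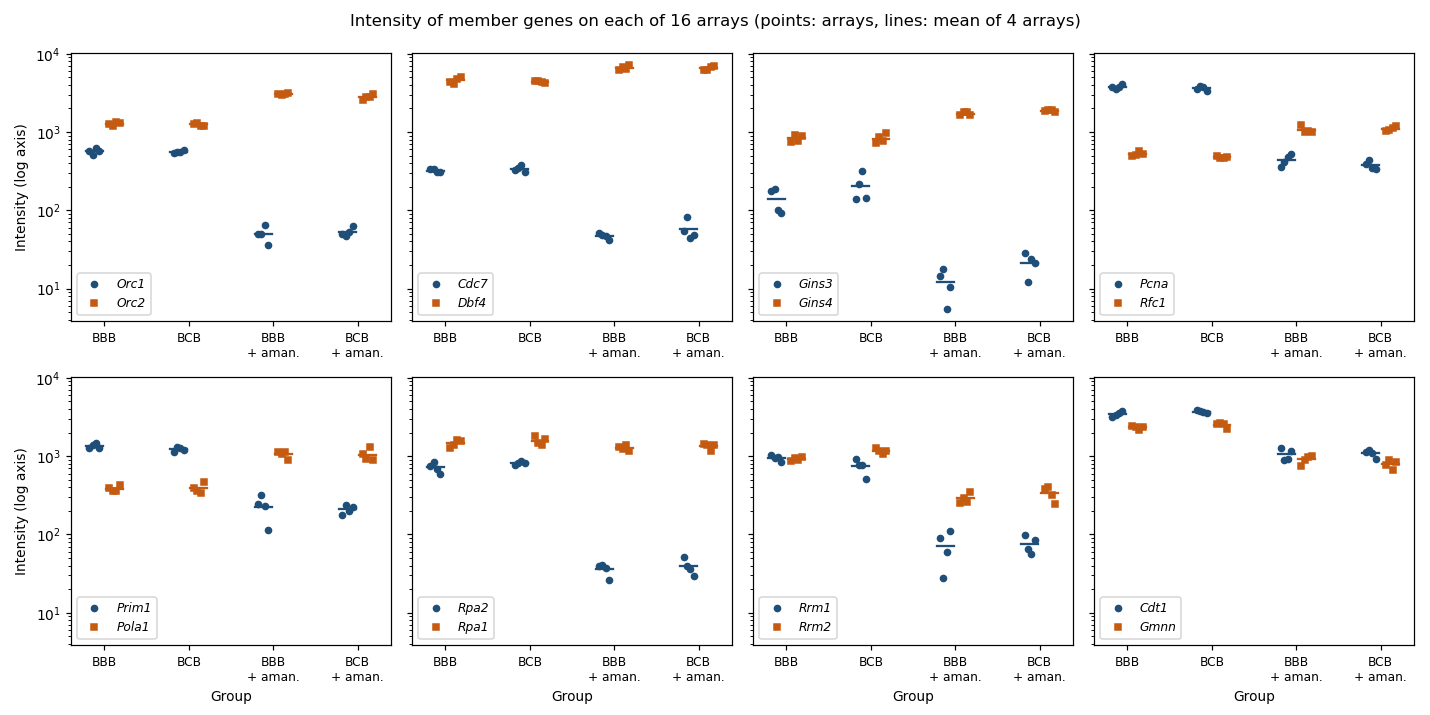
Intensity on each of the 16 arrays (points, log axis) with the mean of each group of 4 arrays (lines) for pairs of genes that act together, by group on the horizontal axis, deposited scale. Within the Orc1 and Orc2, Cdc7 and Dbf4, Gins3 and Gins4, Pcna and Rfc1, and Prim1 and Pola1 panels the first gene is lower with amanitin and the second higher (the second falls below its untreated level when arrays are scaled to poly-A controls), and levels of different probe sets are not comparable.

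Among genes of firing and the fork helicase, 5 of 9 fell and 2 rose on the deposited scale in each kind, with medians of -1.19 in BBB and -1.31 in BCB. Here too the share that fell was above that of all genes (33.1% in BBB and 31.9% in BCB). The share that rose was again below that of all genes (37.1% and 39.9%). Cdc7, the catalytic subunit of the origin-firing kinase, measured 332.3, 337.0, 311.6 and 304.2 in untreated BBB and 50.8, 49, 47.2 and 41.5 with amanitin. The log2 difference was -2.42 ± 0.14 in BBB and -2.30 ± 0.14 in BCB, without overlap. The dimmer Cdc7 probe set was at 0.12 and 0.14 and did not pass in either kind. Dbf4, its activating subunit, given for the highest mean intensity of its step, rose on the deposited scale. Its intensities were 4385.5, 4107.0, 4770.8 and 5017.6 in untreated BBB and 6117.5, 6765.0, 6296.8 and 7079.0 in treated BBB. In BCB they were 4444.3, 4492.6, 4346.1 and 4200.6 untreated and 6132.8, 6149.0, 6778.8 and 6870.7 treated. The treated arrays all lay above the untreated ones, by 0.52 ± 0.07 and 0.57 ± 0.07 on the log2 scale. This rise was not kept under quantile normalization (-0.06 in BBB) or hybridization control scaling (-0.03 in BBB and -0.24 in BCB).

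The GINS complex, which holds Cdc45 to the Mcm ring, was split as well. Gins3 had the largest fall of the step. The untreated arrays of Gins3 gave 174.8, 186.7, 100.9 and 93 in BBB and 140.9, 216.8, 316.9 and 143.9 in BCB. Its treated arrays gave 14.4, 17.8, 5.5 and 10.5 in BBB and 28.6, 12.3, 23.7 and 21.2 in BCB. The groups were apart, although 2 of the 4 treated BBB arrays lay below their array's 40th percentile. In log2 units the difference came to -2.43 ± 0.24 (SE) for BBB and -2.51 ± 0.24 for BCB (limma adjusted p = 3.44e-09 and 2.03e-09). Gins4, a subunit of the same complex, moved the other way. Gins4 measured 734.5, 917.8, 770.2 and 882.4 on the untreated BBB arrays and 720.6, 861.2, 757.0 and 958.5 on the untreated BCB arrays. With amanitin it measured 1653.5, 1815.8, 1789.8 and 1629.9 in BBB and 1839.2, 1898.0, 1915.3 and 1777.5 in BCB. The log2 difference was 1.05 ± 0.09 (SE) in BBB (limma adjusted p = 7.01e-10) and 1.16 ± 0.09 in BCB (1.14e-10), with all treated arrays above all untreated ones. Gins1 fell, at -1.19 ± 0.21 in BBB and -1.69 ± 0.21 in BCB on the log2 scale, and Gins2, at -0.31 ± 0.17 and -0.36 ± 0.17, did not pass the test, while its other probe set was called higher in both (0.70 and 0.65, limma adjusted p = 0.0019 and 0.0035).

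Cdc45, which completes the active helicase, fell from 883.1, 901.6, 811.5 and 894.4 to 211.3, 210.3, 213.0 and 194.6 in BBB, a log2 difference of -1.99 ± 0.10 (-2.14 ± 0.10 in BCB). Another, dim Cdc45 probe set was at 0.06 in BBB, not called, and at 0.63 in BCB, called higher (limma adjusted p = 0.00384). Mcm10, which helps activate the helicase, fell, at -1.54 ± 0.14 and -1.31 ± 0.14. Dim Mcm10 probe sets were at 0.11 and -0.21 in BBB, not called. In BCB they were at 0.08, not called, and -0.48, called lower. Mcm8, a related helicase known for recombination repair, did not pass, at -0.13 ± 0.16 and -0.09 ± 0.16, and its groups overlapped.

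The clamp and its loader changed in opposite directions on the deposited scale. Pcna, the ring that tethers polymerases to DNA, had the largest fall of its step. Its intensities were 3772.1, 3562.1, 3737.4 and 4072.1 in untreated BBB and 358.9, 419.5, 483.7 and 518.3 in treated BBB. In BCB they were 3497.0, 3908.7, 3760.6 and 3385.3 untreated and 388.5, 442.5, 348.7 and 339.2 treated. Treated and untreated arrays were far apart. On the log2 scale Pcna differed by -3.06 ± 0.10 (SE) in BBB, with a limma adjusted p of 2.19e-17, and by -3.21 ± 0.10 in BCB (9.11e-18), an 8.31-fold and 9.27-fold difference. Rfc1, the large subunit of the loader that opens that ring, rose. The untreated arrays of Rfc1 gave 499.6, 506.1, 570.7 and 529.6 in BBB and 488.6, 461.4, 462.1 and 481.0 in BCB. Its treated arrays gave 1239.6, 990.7, 1019.2 and 1009.7 in BBB and 1032.3, 1046.7, 1108.9 and 1204.4 in BCB. Rfc1 was at a log2 difference of 0.99 ± 0.09 (SE, limma adjusted p = 1.32e-09) in BBB and 1.18 ± 0.09 (5.65e-11) in BCB, without overlap of the groups.

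Of the loader's 5 subunits, 4 rose in both kinds on the deposited scale (80.0%) and none fell. Of all genes, 37.1% rose and 33.1% fell in BBB, and 39.9% rose and 31.9% fell in BCB. None of the 5 was above 0 in either kind under poly-A scaling. Rfc5 was at 0.72 ± 0.09 and 0.81 ± 0.09 and Rfc2 at 0.78 ± 0.17 and 1.42 ± 0.17. Rfc3 was dim, at 22.8, 9.6, 14 and 19.2 untreated and 29.9, 22.2, 37.9 and 29.9 with amanitin in BBB, so that the groups overlapped. Its log2 difference of 0.51 ± 0.19 in BBB was no longer called without replicate 2 of the untreated or replicate 3 of the treated BBB arrays (0.40 to 0.43, limma adjusted p = 0.0632 to 0.0805). That call was also lost with probe sets averaged (0.19, limma adjusted p = 0.258) and under hybridization control scaling (0.21, 0.359). The other Rfc3 probe set was at -0.13 in BBB, not called, and at 0.52 in BCB, called higher. Rfc4, at -0.23 ± 0.18 and -0.41 ± 0.18, did not pass. In BCB it was near the threshold (limma adjusted p = 0.0525), and it was called lower there under the stricter 60th percentile filter (0.0445), with probe sets averaged (-0.49, 0.0209), with the replicate block (0.0405), with no intensity trend (0.043) and with array weights (0.0459). The other Rfc4 probe set was also called lower in BCB (-0.56, limma adjusted p = 0.0172) and not in BBB (-0.27, 0.244).

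Of 9 polymerase and primase genes, 4 were lower and 4 higher on the deposited scale in BBB (44.4% each, against 33.1% and 37.1% of all genes), and 4 lower and 5 higher in BCB (44.4% and 55.6%, against 31.9% and 39.9%). Prim1, the catalytic subunit of primase, had the largest fall. Prim1 measured 1271.9, 1391.0, 1467.8 and 1269.9 on the untreated BBB arrays and 1132.0, 1329.6, 1284.6 and 1214.4 on the untreated BCB arrays. With amanitin it measured 243.1, 318.7, 233.8 and 112.8 in BBB and 175.7, 241.4, 201.1 and 226.0 in BCB. All treated arrays lay below all untreated arrays. In log2 units the difference came to -2.57 ± 0.18 (SE) for BBB and -2.47 ± 0.18 for BCB (limma adjusted p = 1.06e-11 and 2.16e-11). Prim2, the regulatory subunit of primase, also fell, at -1.31 ± 0.21 and -1.75 ± 0.21.

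Pola1, the catalytic subunit of polymerase alpha, which forms 1 complex with primase, had the largest rise of the set in BBB on the deposited scale. Its intensities were 388.1, 364.6, 356.5 and 431.7 in untreated BBB and 1120.2, 1082.0, 1125.7 and 894.5 in treated BBB. In BCB they were 388.5, 356.2, 341.2 and 467.3 untreated and 1073.3, 915.6, 1292.8 and 899.2 treated. The groups were apart in both kinds. The log2 difference was 1.41 ± 0.12 (SE) in BBB (limma adjusted p = 3.66e-10) and 1.39 ± 0.12 in BCB (5.33e-10). Under hybridization control scaling Pola1 was still called higher in both kinds, and under poly-A scaling it was at -0.40 and -0.44. Pola2, the accessory subunit, was at 0.40 ± 0.14 and 0.66 ± 0.14, with another probe set called lower in BBB.

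Of polymerase delta, the polymerase of the lagging strand, the accessory subunits Pold2 and Pold3 were called higher in both kinds on the deposited scale. Pold3, given for the highest mean intensity of its step, rose. The untreated arrays of Pold3 gave 1358.6, 1176.8, 1774.1 and 1590.2 in BBB and 1710.3, 1193.8, 1399.2 and 1511.2 in BCB. Its treated arrays gave 3214.1, 3272.3, 3527.7 and 3280.3 in BBB and 2789.4, 2839.8, 2770.8 and 2960.6 in BCB. The treated arrays were all higher. On the log2 scale Pold3 differed by 1.18 ± 0.11 (SE) in BBB, with a limma adjusted p of 7.59e-10, and by 0.97 ± 0.11 in BCB (2.22e-08). Another Pold3 probe set was called higher too (0.87 and 0.97), and a dimmer one, at 0.08 and 0.13, did not pass in either kind. Pold2 was at 0.80 ± 0.15 and 0.78 ± 0.15, and the catalytic subunit Pold1, called higher in BCB, at 0.27 ± 0.19 and 0.49 ± 0.19. Pold1 lost its BCB call without replicate 2 of the untreated or replicate 4 of the treated BCB arrays. Its other probe set was called higher in both kinds (0.57 and 0.48, limma adjusted p = 0.0177 and 0.0423). In BBB Pold1 also passed under quantile normalization (0.59), with arrays centred on their medians (0.57) and with probe sets averaged (0.42). Under poly-A scaling Pold1, Pold2 and Pold3 were at -1.18, -0.87 and -0.67 in BBB.

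Polymerase epsilon, the polymerase of the leading strand, was lower in its catalytic subunit. Pole went from 220.9, 260.8, 235.3 and 227.5 to 144.5, 66.6, 82.2 and 108.8 in BBB, a log2 difference of -1.16 ± 0.18 (-1.27 ± 0.18 in BCB), and its partner Pole2 was at -1.40 ± 0.14 and -1.10 ± 0.14. The small histone-fold subunits Pole3 and Pole4, from the list of other pathway genes, were at 1.86 and 1.04 in BBB and 1.98 and 0.97 in BCB on the deposited scale. The Pole3 log2 difference exceeded that of Pole by 3.02 (BBB) and 3.25 (BCB), and by 1.49 and 1.75 with probe sets averaged. Pole has a single probe set, so the size of the Pole3 rise depended on the probe set.

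Strand maturation held no rise. Of 7 genes, 6 fell in BBB and 7 in BCB, with medians of -1.46 and -1.5. Over all genes 33.1% fell in BBB and 31.9% in BCB, and 37.1% and 39.9% rose on the deposited scale. Rpa2, the middle subunit of the single-strand binding complex RPA, had the largest fall of the 49 genes in both kinds. Rpa2 measured 758.5, 850.6, 679.6 and 587.6 on the untreated BBB arrays and 767.5, 824.9, 868.2 and 808.1 on the untreated BCB arrays. With amanitin it measured 39.5, 40.2, 37.5 and 26.5 in BBB and 51.7, 39.6, 36.4 and 29.7 in BCB. The lowest untreated array was far above the highest treated one. Rpa2 was at a log2 difference of -3.82 ± 0.14 (SE, limma adjusted p = 8.91e-17) in BBB and -3.93 ± 0.14 (5.07e-17) in BCB, a 14.1-fold and 15.2-fold difference. Rpa1, the large DNA-binding subunit, given for the highest mean intensity of its step, showed a small difference. Its intensities were 1276.0, 1373.1, 1624.7 and 1571.7 in untreated BBB and 1327.2, 1227.4, 1369.8 and 1151.6 in treated BBB. In BCB they were 1816.6, 1454.3, 1390.3 and 1653.1 untreated and 1410.7, 1371.6, 1178.8 and 1370.9 treated. The groups overlapped in both kinds, with log2 differences of -0.20 ± 0.10 (limma adjusted p = 0.083) and -0.24 ± 0.10 (0.0384). Its call in BCB was lost without replicate 1 or 4 of the untreated or replicate 3 of the treated BCB arrays, and when arrays were centred on their medians (-0.02). It was also lost with no filter (limma adjusted p = 0.0527), with probe sets averaged (0.199), with no intensity trend (0.0908) and with array weights (0.0521). The small subunit Rpa3 was at -1.60 ± 0.13 and -1.50 ± 0.13.

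Top2a, the topoisomerase that untangles replicated DNA, fell from 1713.0, 1438.9, 1318.6 and 1296.0 to 205.6, 162.4, 162.0 and 69.4 in BBB and from 1503.9, 1454.3, 1568.1 and 1290.3 to 116.3, 115.2, 115.3 and 138.6 in BCB. The groups were apart, with log2 differences of -3.21 ± 0.19 and -3.42 ± 0.19. Of the enzymes that finish lagging strand fragments, the nuclease Dna2 was at -1.46 ± 0.12 and -1.64 ± 0.12, the flap endonuclease Fen1 at -1.0 ± 0.16 and -0.80 ± 0.16, and the ligase Lig1 at -0.61 ± 0.13 and -0.69 ± 0.13. All of these passed the test, the call of Lig1 in BBB being the one lost under quantile normalization.

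Of the 3 nucleotide supply genes, 2 fell in BBB and 3 in BCB, the third being the dim gene Tyms. None rose. Among all genes 33.1% fell in BBB and 31.9% in BCB, and 37.1% and 39.9% rose on the deposited scale. Rrm1, the large subunit of ribonucleotide reductase, which makes deoxynucleotides, had the largest fall. The untreated arrays of Rrm1 gave 1040.5, 949.3, 973.1 and 837.2 in BBB and 915.4, 773.7, 775.9 and 505.0 in BCB. Its treated arrays gave 89.1, 27.8, 59.3 and 111.2 in BBB and 97.8, 66.1, 57 and 84.8 in BCB. No treated array reached the untreated range. In log2 units the difference came to -3.56 ± 0.23 (SE) for BBB and -3.03 ± 0.23 for BCB (limma adjusted p = 2.47e-12 and 4.67e-11), an 11.8-fold and 8.15-fold difference. Rrm2, its small subunit in dividing cells, also fell. Rrm2 measured 880.5, 958.8, 888.7 and 987.4 on the untreated BBB arrays and 1264.7, 1154.9, 1060.3 and 1179.4 on the untreated BCB arrays. With amanitin it measured 252.5, 293.2, 259.5 and 350.5 in BBB and 383.0, 407.8, 314.9 and 247.2 in BCB. The log2 difference was -1.64 ± 0.13 (SE) in BBB (limma adjusted p = 7e-11) and -1.76 ± 0.13 in BCB (2.1e-11), again without overlap. Another Rrm2 probe set gave -3.04 in BBB, so the size of this fall depended on the probe set. Tyms, which makes thymidylate, was dim: it measured 8.0, 6.7, 14.7 and 15.5 in untreated BBB and 7.8, 0.4, 6.2 and 1.0 in treated BCB. Below their array's 40th percentile were 2 of 4 untreated BBB, 3 untreated BCB, 3 treated BBB and 4 treated BCB arrays. Its log2 difference of -0.52 ± 0.18 in BCB passed the test and that of -0.18 ± 0.18 in BBB did not. The BCB call was lost with arrays centred on their medians (-0.30, limma adjusted p = 0.12) and without replicate 2 of the treated BCB arrays (-0.43, 0.0507).

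Several partners that act together moved in opposite directions on the deposited scale. The pairs were picked with their values in view, so no test is given. The gap between the log2 differences of Orc2 and Orc1 was 4.42 in BBB and 4.21 in BCB, and it was 4.15 and 3.90 under poly-A scaling. For Rfc1 and Pcna it was 4.05 and 4.40, and 4.04 and 4.38 under poly-A scaling. For Pola1 and Prim1 it was 3.98 and 3.86, for Gins4 and Gins3 3.48 and 3.67, and for Dbf4 and Cdc7 2.94 and 2.87. These gaps kept their sign under every scaling run. With probe sets averaged, the Dbf4 and Cdc7 gap was 1.62 and 1.46 and the Orc2 and Orc1 gap 3.21 and 2.76.

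The second comparison asked whether embryos with a C3H maternal pronucleus differed from those that were B6 throughout. No replication gene differed between BCB and BBB by limma, untreated (0 of 49, against 0.386% of all genes higher and 0.268% lower) or with amanitin (0 of 49, against 0.0393% in each direction). At an unadjusted p under 0.05 there were 3 untreated (Mcm4, Gins3 and Rrm2) and 4 with amanitin (Orc3, Orc4, Mcm10 and Pold3), and the lowest adjusted p was 0.55 and 0.184. Untreated differences ran from -0.38 for Rrm1 to 0.50 for Gins3 and treated ones from -0.59 for Orc3 to 0.46 for Mcm10, as BCB minus BBB on the log2 scale. The 95% intervals of all 49 genes lay within 2-fold in both comparisons, with outermost bounds of -0.86 and 0.99 untreated and -0.94 and 0.91 with amanitin.

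Some groups did not overlap although no test passed. Untreated BCB lay above BBB for Mcm4, Mcm7 and Rrm2 (2.86% of all genes did) and below it for Rfc1 (3.57%). Mcm4 measured 443.9, 503.5, 438.3 and 483.3 in untreated BBB and 624.7, 540.5, 579.5 and 676.8 in untreated BCB, a log2 difference of 0.36 ± 0.16 (limma adjusted p = 0.638). With amanitin BCB lay below BBB for Orc3, Orc6 and Pold3 (1.65%) and above it for none of the 49 (2.01%).

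The amanitin effect itself was compared between kinds by the interaction. No gene of the set passed by limma (0 of 49, against 0.0655% of all genes higher and 0.19% lower), with 2 at an unadjusted p under 0.05, Gmnn and Rfc2, and a lowest adjusted p of 0.415. The estimates ran from -0.50 for Gins1 to 0.65 for Rfc2, as the effect in BCB minus that in BBB. On the same log2 scale the 95% interval stayed within 2-fold for 45 of the 49 genes and reached past it for Gins1, Rfc2, Prim2 and Rrm1. Genes called in 1 kind alone, such as Orc3 and Tyms, were therefore not shown to differ between kinds.

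**Figure D4:**
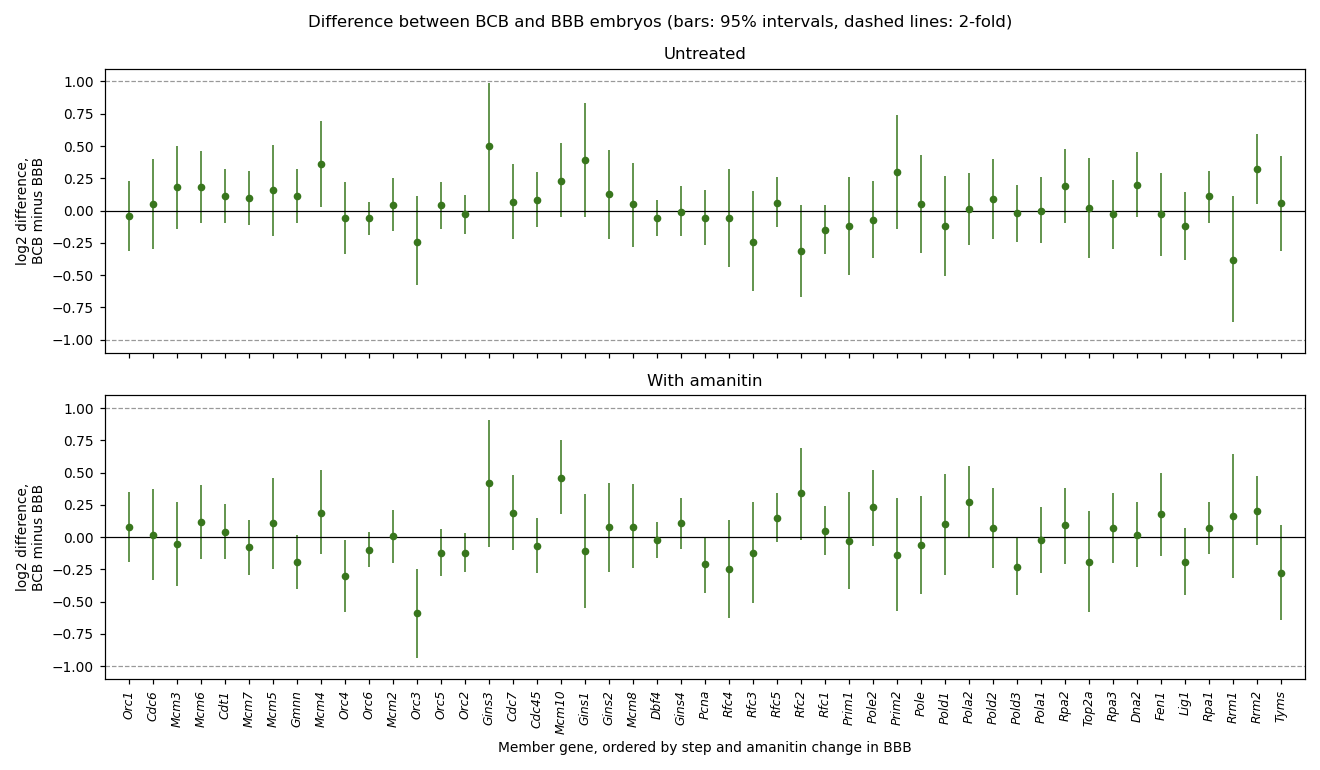
Log2 difference between kinds (BCB minus BBB, log2(intensity + 16)) for the 49 genes, untreated in the upper panel and with amanitin in the lower, with 95% intervals from 4 against 4 arrays and dashed lines at 2-fold. All 49 intervals lie between the dashed lines in both panels, and no gene passed the test. The scale understates the fold of intensity of dim genes such as Tyms and Rfc3.

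The other genes of the pathway showed a like division. Of 64 measured among 68 listed, 37 fell (57.8%, against 33.1% of all genes) and 17 rose (26.6%, against 37.1%) in BBB on the deposited scale. In BCB 38 fell (59.4%, against 31.9%) and 19 rose (29.7%, against 39.9%). The medians were -0.94 and -0.81. The largest falls were in nucleotide synthesis and origin binding. Prps1, which makes the ribose phosphate donor for nucleotides, went from a mean of 3150.8 ± 195.0 (SD, n = 4) to 37.0 ± 16 in BBB and from 3243.3 ± 282.0 to 41.0 ± 3.54 in BCB, log2 differences of -5.95 and -5.83. Ppat, the first committed enzyme of purine synthesis, went from 1426.9 ± 163.0 to 11.2 ± 3.61 in BBB, a log2 difference of -5.73 (-5.80 in BCB). The treated mean of Ppat lay within the 40th percentiles of the treated BBB arrays (10.8 to 11.9) and 2 of 4 treated arrays in each kind were below their own, so the size of this difference depends on a dim level: it was -3.82 and -4.16 with probe sets averaged and -6.91 and -6.99 with a pseudocount of 1.

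The enzymes that follow Ppat in purine synthesis were also lower: Gart, Paics, Adsl and Atic were at -2.16, -1.61, -3.44 and -2.03 in BBB. On the branches to the finished purines, Impdh1 and Gmps, toward guanylate, were at -2.66 and -3.41. Adss, toward adenylate, was at 1.03 on the deposited scale and -0.82 under poly-A scaling. Adsl (-3.44) also acts on that branch, after Adss, so these values do not show that the branches moved apart. Impdh2, which was also listed, is not given here. The genes given were picked for their place in the pathway after their values were seen. Lrwd1, which binds the origin recognition complex, was at -4.42 and -3.92, and Shmt1, the cytosolic serine hydroxymethyltransferase that feeds thymidylate synthesis, at -4.29 and -3.82.

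The largest rises, again on the deposited scale, were Pole3, Dctd, Shmt2 and Exo1. As given above, the size of the Pole3 rise depended on the probe set. Dctd, which deaminates deoxycytidylate, was at 1.74 and 1.5, Shmt2, the mitochondrial counterpart of Shmt1, at 1.43 and 1.42, and the exonuclease Exo1 at 1.27 and 1.29. Under poly-A scaling Dctd, Shmt2 and Exo1 were at -0.07, -0.41 and -0.58 in BBB and Pole3 at 0.04, and none was called higher. Rrm2b, the alternative small subunit of ribonucleotide reductase, was at 1.02 and 1.08, and Samhd1, which breaks down deoxynucleotides, at 1.19 and 1.16. Under poly-A scaling Rrm2b was at -0.83 and -0.79 and Samhd1 at -0.63 and -0.68. With probe sets averaged Samhd1 was at 0.28 and 0.16. Both were singled out after their values were seen.

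Dck, the kinase that salvages deoxycytidine, was the gene of the wider list that differed between kinds. It measured 354.0, 284.9, 436.5 and 331.1 in untreated BBB and 261.8, 155.3, 198.3 and 190.6 in untreated BCB, so every BCB array was below every BBB array. The log2 difference was -0.76 ± 0.17 (SE, limma adjusted p = 0.033). With amanitin Dck lay near the arrays' 40th percentile of 10.8 to 14.1 in both kinds, at 16.4 ± 1.86 and 13.6 ± 5.67. The call was lost without 6 of the 16 arrays, each left out in turn (limma adjusted p up to 0.193), and when the probe sets of Dck were averaged (-0.36, 0.353). It was also lost under hybridization control scaling (0.0749), with a pseudocount of 1 (0.386) and with no filter (0.0599).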

How the data were processed

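A Picopure kit was used to extract the embryos' total RNA and an ENZO kit to label it with biotin, per the labels' protocols. The deposited values are intensity on a linear scale for 45037 probe sets and 64 controls, scaled per array by the authors, as equal trimmed means of 148.6 to 149.4 per array show. The software is not given in the sources used here. Symbols came from the platform annotation (34945 probe sets with 1 symbol, 932 with several, 9160 with none).

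Values were taken as log2(value + 16), and probe sets were kept that reached the 40th percentile of the array on 4 or more of 16 arrays, 31953 in all. A gene was read from its probe set with the highest mean. Limma 3.58.1 (R 4.3.3) fitted a mean per group over all 16 arrays with an intensity trend, with Benjamini-Hochberg adjusted p under 0.05, and was tested on simulated data. The contrasts share arrays. The members and lists were chosen with earlier results of these data known. Genes given by array were, per step, the largest fall, the largest rise and the brightest, with others of each complex. Of the other pathway genes, the rule named the 4 largest falls and 4 largest rises in BBB and any called between kinds. Alternatives were 4 other scalings, 2 pseudocounts, filters, the mean of probe sets, fit settings and leaving out each array. Array measures were compared by exact permutation tests.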

Additional observations from a re-analysis of the deposited data

Results flagged for a closer look

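In 14 of 196 groups of 4 arrays (49 genes in 4 groups), the highest or lowest array stood apart by more than Dixon's 95% critical share of the group's range. Chance alone flags about 1 in 20 such groups. Among licensing and helicase genes these were Orc5 at 4043.4 on treated BBB array 2 (others 3328.3 to 3435.1), Gmnn at 2233.1 on untreated BCB array 4 (others 2592.8 to 2650.6), Mcm3 at 61.9 on treated BBB array 1 (others 33.6 to 38.2), Mcm7 at 2468.7 on untreated BCB array 3 (others 2226.8 to 2247.2) and Cdc45 at 194.6 on treated BBB array 4 (others 210.3 to 213.0).

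Among loader and polymerase genes they were Rfc1 at 1239.6 on treated BBB array 1, Rfc4 at 41.4 on untreated BBB array 3 and at 41.9 on treated BBB array 4, Pold1 at 93.0 on treated BCB array 4, Pold2 at 119.7 on untreated BBB array 4 and Pole2 at 349.4 on untreated BBB array 3. The remaining genes were Lig1 at 119.3 on treated BCB array 2, Top2a at 138.6 on treated BCB array 4 and Tyms at 15.5 on untreated BCB array 4. Without treated BCB array 4, Pold1 was no longer called higher in BCB.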

How the results depend on the processing

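Comparisons between BCB and BBB and the interaction kept 0 calls among the 49 genes under every setting run. For amanitin, the counts kept within 1.5 times of their value in settings other than the control scalings: 13 to 16 higher and 27 to 28 lower in BBB, 13 to 16 higher and 27 to 31 lower in BCB. Leaving out each array gave 13 to 15 higher and 27 to 28 lower in BBB and 13 to 14 higher and 29 to 31 lower in BCB. Scaled to hybridization controls, 6 (BBB) and 5 (BCB) were higher. Scaled to poly-A controls, 0 and 0 were higher and 48 and 47 lower. Higher calls were 34.1% of the set's calls in BBB (31.8% in BCB) on the deposited scale, 15.4% (12.2%) on hybridization controls and 0.0% in both on poly-A controls; over all genes they were 52.8% (55.6%), 32.6% (23.8%) and 1.20% (1.0%).

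Sign changes of log2 differences under poly-A scaling were, in BBB, Orc2 -0.59, Orc3 -0.83, Orc5 -0.91, Orc6 -1.72, Mcm2 -1.54, Dbf4 -1.33, Gins4 -0.79, Rfc1 -0.83, Rfc2 -0.83, Rfc3 -0.55, Rfc5 -1.11, Pola1 -0.40, Pola2 -1.31, Pold1 -1.18, Pold2 -0.87, Pold3 -0.67, Dctd -0.07, Exo1 -0.58 and Shmt2 -0.41, and in BCB, Orc2 -0.71, Orc3 -1.03, Orc5 -1.09, Orc6 -1.77, Mcm2 -1.59, Dbf4 -1.31, Gins4 -0.69, Rfc1 -0.65, Rfc2 -0.19, Rfc3 -0.29, Rfc5 -1.05, Pola1 -0.44, Pola2 -1.07, Pold1 -0.95, Pold2 -0.91, Pold3 -0.89, Dctd -0.33, Exo1 -0.58 and Shmt2 -0.43. Under hybridization control scaling they were Orc6 -0.42, Mcm2 -0.24, Dbf4 -0.03 and Pola2 -0.11 in BBB and Orc5 -0.02, Orc6 -0.71, Mcm2 -0.53, Dbf4 -0.24, Pola2 -0.09 and Pold1 -0.14 in BCB. Under quantile normalization they were Orc6 -0.29, Mcm2 -0.0016 and Dbf4 -0.06 in BBB and Orc6 -0.27 and Mcm2 -0.02 in BCB. With probe sets averaged they were Pola2 -0.07 in BBB and Orc4 0.10 in BCB. These lists hold genes called under at least 1 of the settings compared. Genes called under neither also changed sign (left-out arrays aside): Orc4 in BBB (0.19) and Gins2 (0.20 in BBB, 0.14 in BCB) with probe sets averaged, and Orc4 (0.13), Rfc4 (0.07), Rpa1 (0.10) and Tyms (0.11) in BBB and Mcm8 in both kinds (0.17 and 0.13) with arrays centred on their medians, Mcm8 in both kinds (0.23 and 0.22) and Gins2 in BBB (0.03) under quantile normalization, and Pold1 in BBB (-0.16) and Orc3 in BCB (-0.30) under hybridization control scaling. Apart from these scalings the cause was not tested. The 60th percentile filter left 47 of the 49 genes.

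The replicate numbers did not pair the arrays: deviations of arrays with the same number correlated at -0.087 to 0.107. With the replicate block, 14 genes were higher and 27 lower in BBB and 14 higher and 31 lower in BCB, where Rfc4 passed (-0.41, limma adjusted p = 0.0405). Without single arrays, calls of Rfc3 in BBB and of Mcm2, Orc4, Pold1, Rpa1 and Tyms in BCB were lost, and Gins2, Pold1 and Rpa1 in BBB and Gins2 and Rfc4 in BCB gained one. Dim probe sets limit Tyms, Rfc3, Rfc4 and Gins3, each below its array's 40th percentile on some arrays.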

Other observations

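Of the 49 genes, 34 had more than 1 tested probe set. Probe sets of the same gene were called in opposite directions with amanitin for Orc4 and Pola2 in BBB and for Orc4 and Cdc45 in BCB. For Orc4, the probe set read was at -0.17 in BBB while others were at 0.92, 0.89 and -0.88. Sizes also differed where directions did not: Dna2 was at -1.46 in BBB on the probe set read and -3.25 on another, Rrm2 at -1.64 and -3.04, and Rpa2 at -3.82 and -2.46. Likewise in BBB, Mcm5 was at -1.54 on the probe set read and -0.53 on another, and Mcm4 at -1.14 and -0.52. Orc1 was at -3.17 in BBB on the probe set read and -0.90 on its other one. In BCB it was at -3.05 on the probe set read, while the other one was at -0.09 (limma adjusted p = 0.673) and did not pass. Probe sets that may also match related transcripts, by their suffix, were read for Mcm4, Mcm5, Fen1 and Rrm2 (x) and for Mcm2, Mcm3, Mcm7 and Gins2 (s).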
